A study of Mus musculus with 23 samples.

Results

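Gene expression in gastrocnemius, the large calf muscle, of old mice after high-intensity intermittent training (HIIT) was compared with that of adult sedentary mice. The question was which transcripts lay above, below or at the adult level once old animals had trained. The comparison takes 8 of the 23 arrays of the study, 4 labelled old HIIT and 4 labelled adult sedentary, and each array is a separate sample of its group. The 4 old HIIT mice were C57BL/6J males that were 24 months old at the start and 25 months old at sampling. They ran on a treadmill every day for 4 weeks, in 3 bouts of 2 min at 27 m/min separated by 1 min of recovery at 5 m/min. The 4 adult sedentary mice were C57BL/6J males of 5 months at the start and 6 months at sampling, which were placed each day by a treadmill that did not run. All mice were housed singly, fed standard chow and killed after 12 h of rest. A further 11 arrays entered the statistical fit to estimate the spread, and their levels are given beside some results: 4 of old mice and 3 of adult mice after moderate-intensity continuous training (MICT, a single daily run of 45 min at 13 m/min), and 4 of adult mice after HIIT. The 4 old sedentary arrays were left out of the main fit and entered only the alternatives that take all 23 arrays. Nothing here measures how far training moved old muscle.

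All old HIIT arrays were printed on slide 3 and all adult sedentary arrays on slide 1. Age, training and slide therefore cannot be told apart in any difference reported here. The tissue label was checked against muscle fibre markers: all 10 listed markers (among them Acta1, Ckm, Des and Ttn) were measured, with a median signal 9.03 log2 units above the arrays' 75th percentile. On the 8 arrays, 50.3% to 58.9% of spots were well above background and none was marked as saturated. The 75th percentile of the signal was 655 intensity units on old HIIT 2 and 280 to 319 on the other old HIIT arrays, against 314 to 498 on the adult sedentary arrays. Across features, old HIIT 1 correlated with the other 3 old HIIT arrays at r = 0.964 to 0.973, while those 3 correlated with each other at 0.983 to 0.989 and the adult sedentary arrays among themselves at 0.982 to 0.991. Features are not independent replicates, and these correlations only describe the arrays. The median SD over features was 0.270 log2 units in old HIIT and 0.231 in adult sedentary muscle.

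Skeletal muscle is built mostly of multinucleate fibres whose transcripts encode the contractile apparatus, the enzymes of glycolysis and the mitochondrial machinery of oxidative phosphorylation. Between the fibres lie vessels, nerve, fibroblasts, fat cells and resident immune cells, and a piece of whole muscle can carry tissue from its surroundings, such as a lymph node or skin. Ageing muscle is known for loss of mass and strength and for gains of fat and connective tissue. Interval training is known to draw on muscle glycogen. In bulk tissue, fewer cells of a type and less RNA per cell cannot be told apart, and this holds for every cell type marker below.

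Each value below is the log2 processed signal minus the 75th percentile of its own array, so that 0 stands for that percentile, and a difference is old HIIT minus adult sedentary in log2 units with limma's standard error (SE). A feature is 1 gene, or 1 probe where no symbol could be matched. Of 25326 features tested, 63 (0.249%) passed an adjusted p of 0.05. Old HIIT muscle was higher in 54 of them (0.213%) and lower in 9 (0.0355%). A further 10830 features (42.8%) were at the adult level, meaning that they did not pass the test and that the 95% confidence interval of the difference lay within 1.5-fold in either direction. The remaining 14433 were unresolved: the data fix them neither as different nor as alike. Without adjustment, 3201 features had p under 0.05, 1426 higher and 1775 lower, and the smallest adjusted p was 0.0156. The number of calls depended on single arrays. It was 442 without old HIIT 1 and 27 without old HIIT 2. It was 3 without adult sedentary 1, and limma called 0 without adult sedentary 3 or without adult sedentary 4 (2314 and 2742 features at an unadjusted p under 0.05). With median scaling in place of the 75th percentile, 846 features passed, 149 higher and 697 lower, and the median of all differences was -0.22 in place of -0.05. With quantile scaling 16 passed, 10 higher and 6 lower. With only the 8 compared arrays in the fit 76 passed, 66 higher and 10 lower, and 24 of these were among the 63. An additive fit of age, training and slide needs all 23 arrays, the old sedentary ones included. In it limma called 0 features (1891 unadjusted) and 387 were at the adult level. That fit has as many terms as groups, takes its estimate from all 6 groups and gives old HIIT a minus sign. It therefore cannot show the old HIIT difference with slide removed.

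Nearly all tested genes of mitochondrial respiration were at the adult level in old HIIT muscle, in the fit without a slide term. For complex I, which takes electrons from NADH, 35 of 36 tested subunit genes were at the adult level, with a median difference of -0.09. For complexes II to IV and the ATP synthase the count was 41 of 42 with a median of -0.04, and for pyruvate dehydrogenase with the enzymes of the citric acid (tricarboxylic acid) cycle 20 of 21 with a median of -0.09. In the order of these lists, 5 of 36, 16 of 42 and 7 of 21 genes had a positive difference. The median over all features was -0.05, and 42.8% of all features were at the adult level. That share rises with signal: with features in 4 equal bins from dim to bright, it was 7.53%, 36.3%, 54.9% and 72.3%. These lists lie in the bright range, with median signals of 7.62, 8.09 and 7.10.

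Ndufa1, an accessory subunit of complex I, had 7.66, 7.43, 7.37 and 7.12 in old HIIT mice 1 to 4, against 7.81, 7.67, 7.71 and 7.47 in adult sedentary mice 1 to 4. The groups overlap and the difference was -0.27 ± 0.11 (95% interval -0.50 to -0.05). Cox6b1, a subunit of cytochrome c oxidase, had 5.62, 5.06, 5.10 and 5.18 in old HIIT, against 5.57, 5.30, 5.57 and 5.45 in adult sedentary muscle, a difference of -0.23 ± 0.13. Suclg2, the GDP-forming subunit of succinyl-CoA ligase, had 1.85, 2.01, 1.82 and 1.99 in old HIIT and 2.28, 2.13, 2.18 and 2.35 in adult sedentary mice, and here the groups do not overlap although the difference of -0.32 ± 0.12 stays inside the margin. Each of the 3 genes had the smallest p of its list. At the narrower margin tried, 16 complex I genes, 14 of complexes II to IV and ATP synthase and 3 of the tricarboxylic acid cycle remained at the adult level. In the additive fit of age, training and slide, the counts at the adult level were 0, 0 and 1 for these lists. As said above, that fit cannot show the old HIIT difference with slide removed.

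Proteasome subunits, which form the chamber where ubiquitin-tagged proteins are degraded, were at the adult level in 30 of 31 genes, with a median difference of -0.04. Psmd2, a subunit of the regulatory cap, had 6.11, 5.91, 5.71 and 5.71 in old HIIT, against 6.17, 5.98, 5.94 and 6.17 in adult sedentary muscle. The count at the adult level was 15 without old HIIT 1 and 2 and 5 at the narrower margin. It was 0 in the additive fit with slide, which carries the same limit.

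Fast-twitch contractile genes were at the adult level in 8 of 16 and unresolved in the other 8. Among the myosin heavy chains, Myh4 of type IIB fibres had 10.12, 8.99, 10.17 and 10.002 in old HIIT, against 10.10, 9.54, 10.09 and 9.62 in adult sedentary muscle, a difference of -0.01 ± 0.23. Myh1 of type IIX fibres differed by 0.03 ± 0.27 and Myh2 of type IIA fibres by -0.20 ± 0.34, both unresolved. Pvalb, the calcium buffer parvalbumin of fast fibres, and Tnnc2, fast troponin C, were at the adult level with differences of -0.04 ± 0.21 and 0.04 ± 0.26. These brightest probes carry a limit. Before scaling, the log2 signals of the 10 brightest features at the adult level (Pvalb, Tnnc2, Myh8, Tpm1, Slc25a4, Acta1, Gm5523, Tcap, Glrx2 and Kctd14) spanned only 18.0 to 18.7 over the old HIIT arrays and 18.3 to 18.9 over the adult sedentary arrays, while the arrays' own 75th percentiles spanned 7.92 to 9.11 in old HIIT and 8.09 to 8.73 in adult sedentary muscle. On old HIIT 2, the array with the highest percentile, all 10 scaled values were the lowest of the 8 arrays. Myh8, the perinatal myosin, is close in sequence to the fast myosins, so its signal may include theirs.

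Of 30 glycolysis and glycogen genes, 18 were at the adult level and none passed the test. Slc2a4, the insulin-responsive glucose transporter GLUT4, had 7.94, 7.43, 7.61 and 7.51 in old HIIT, against 7.86, 7.60, 8.01 and 7.82 in adult sedentary muscle, a difference of -0.20 ± 0.13 that kept it at the adult level. Hk2, hexokinase 2, differed by -0.29 ± 0.25 and was unresolved. Chrna1, the acetylcholine receptor subunit that rises in denervated muscle, had 3.48, 3.06, 3.46 and 3.04 in old HIIT, against 3.15, 3.56, 2.93 and 3.09 in adult sedentary mice, and was at the adult level (0.08 ± 0.24). Of the 27 genes of the denervation and neuromuscular junction list, 6 were at the adult level and none passed the test. Gpx4, the lipid peroxide reductase, was at the adult level at -0.30 ± 0.08, with 7.15, 6.84, 6.90 and 7.01 in old HIIT, all below the 7.34, 7.18, 7.28 and 7.30 of adult sedentary muscle.

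**Figure D1:**
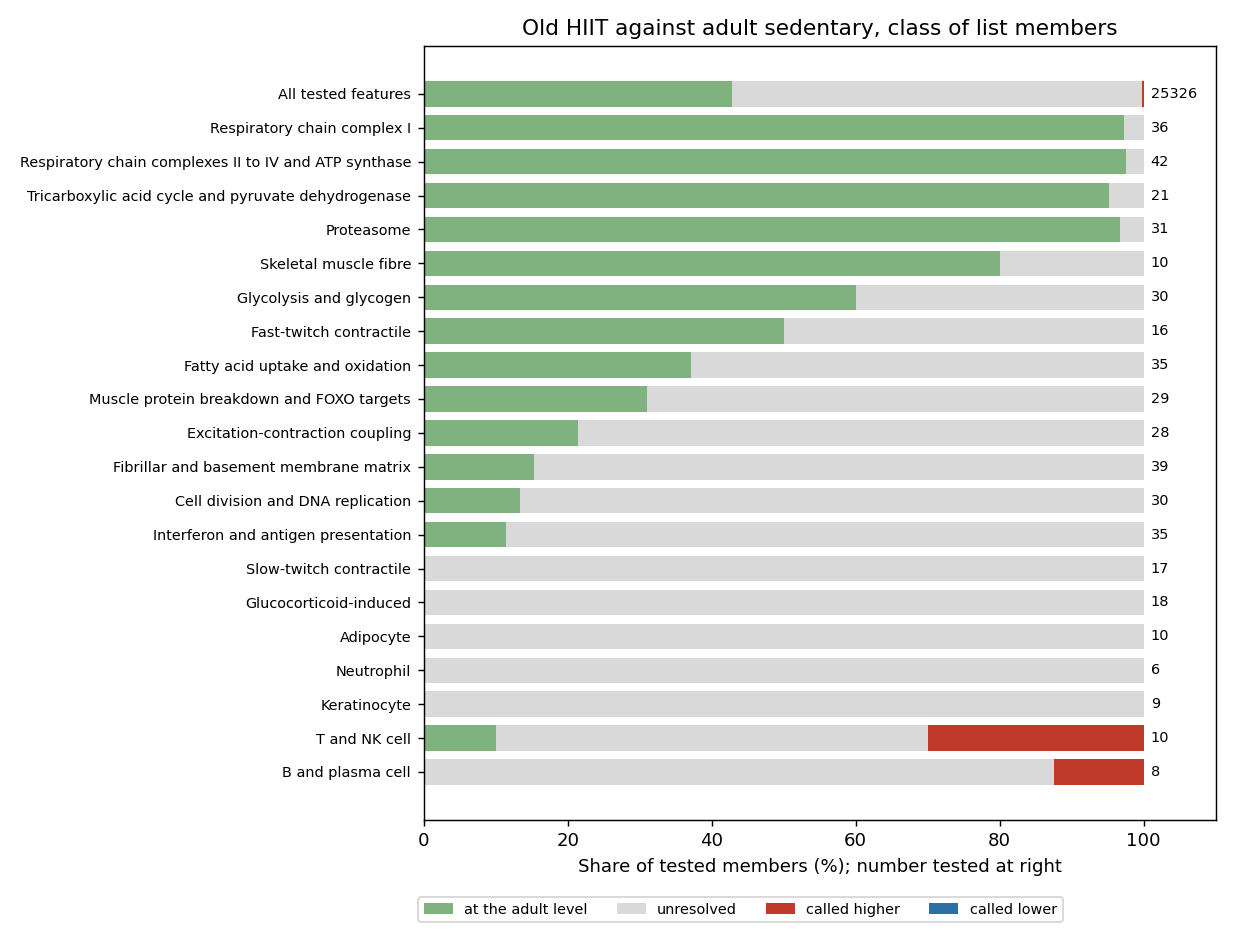
Class of the tested members of 20 gene lists and of all 25326 features in old HIIT against adult sedentary muscle; the x axis is the share of members in percent and the number tested stands at the right of each bar. Green marks the adult level, grey unresolved, red called higher and blue called lower. Complex I (35 of 36), complexes II to IV with ATP synthase (41 of 42), the tricarboxylic acid cycle (20 of 21) and the proteasome (30 of 31) are almost wholly green, and red appears for T and NK cells and for the B lineage.

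Of the 54 features called higher, 29 had a gene symbol. They include genes of T cells, of the B lineage and of innate defence beside genes of other kinds. All 54 had every old HIIT array above every adult sedentary array, a separation in the higher direction that 3.17% of all features showed. Of the 54, 25 were above background on no adult sedentary array and 15 on all 4. All those above background on fewer than 3 adult arrays, the 25 among them, passed the filter only with old HIIT arrays. The filter thus has a part in these calls. With at least 6 of the 8 arrays required to be above background, limma called 2 features higher and 2 lower. The 54 were dim: their median signal was -3.08, against -0.31 for all features, and 49 of them were above background on all 4 old HIIT arrays. Where no adult array was above background, the fold is a lower bound, with each adult array set to at least its lowest signal among probes above background. Old HIIT 2 gave the highest value in 35 of the 54, old HIIT 1 in 7, old HIIT 3 in 2 and old HIIT 4 in 10.

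T cell receptor genes stood among the calls. Cd3g and Cd3d encode the gamma and delta chains of CD3, the signalling part of the receptor, and lie head to head on mouse chromosome 9. Their promoter windows, from 250 bases before to 50 bases after the start (RefSeq, GRCm38.p6), are shown because both neighbours were called higher: Cd3d at chr9:44981536-44981835 on the plus strand and Cd3g at chr9:44980382-44980681 on the minus strand, with 854 bases between the windows. Capitals mark GGAAGT, searched on both strands (ACTTCC on the other), a sequence that ETS transcription factors can bind and that 23.8% of 32851 promoter windows of this length hold. The Cd3d window has 1 match, at bases 52 to 57, and the Cd3g window has 0.
Cd3d: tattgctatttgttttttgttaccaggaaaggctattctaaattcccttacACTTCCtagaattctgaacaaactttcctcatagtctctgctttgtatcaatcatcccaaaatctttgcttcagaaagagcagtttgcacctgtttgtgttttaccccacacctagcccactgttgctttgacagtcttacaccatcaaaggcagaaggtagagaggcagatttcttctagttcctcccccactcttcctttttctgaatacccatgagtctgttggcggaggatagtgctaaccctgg
Cd3g: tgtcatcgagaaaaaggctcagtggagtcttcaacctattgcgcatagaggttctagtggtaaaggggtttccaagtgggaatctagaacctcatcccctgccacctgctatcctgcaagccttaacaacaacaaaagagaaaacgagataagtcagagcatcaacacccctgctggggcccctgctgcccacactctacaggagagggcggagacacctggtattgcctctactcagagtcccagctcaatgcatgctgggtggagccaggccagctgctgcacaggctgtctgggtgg

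Cd3g had -3.63, -0.20, -2.35 and -1.98 in old HIIT mice 1 to 4, against -5.10, -4.48, -6.21 and -6.73 in adult sedentary mice, and was above background on all 4 old HIIT arrays and on 1 adult array. The fitted difference was 3.59 ± 0.73 (adjusted p = 0.0492), and its size rests in part on the 3 adult values not above background. Cd3d had -2.97, 0.49, -3.19 and -2.36 in old HIIT, against -5.64, -4.75, -5.22 and -5.40 in adult sedentary muscle. It was at least 5.03-fold higher (adjusted p = 0.0492). In both genes old HIIT 2 stood highest, and the lowest old HIIT mouse still lay above every adult mouse.

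Lck, the kinase that starts T cell receptor signalling, had -1.52, 1.18, -1.75 and -2.05 in old HIIT and -3.75, -3.07, -3.83 and -3.53 in adult sedentary muscle, 5.69-fold higher (2.51 ± 0.51, adjusted p = 0.0492). Ccl5, a chemokine that draws T cells and monocytes, had 1.43, 3.85, 0.71 and -0.04 in old HIIT, against -1.34, -0.84, -1.63 and -1.72 in adult sedentary muscle, 7.32-fold higher (2.87 ± 0.57). It was the 1 call among 25 tested chemokine and inflammation genes (0.213% of all features were called higher). Of the 10 tested T and NK cell markers, 3 were called higher (again against 0.213%), 1 was at the adult level and 6 were unresolved. Their median difference was 1.32. Of 14 listed, Cd8a, Cd8b1, Gzmb and Trat1 did not pass the filter. Of the 10, Cd3d was above background on no adult array, and Cd3g and Il7r were on 1. At least these passed the filter only with old HIIT arrays, so the count of calls is partly set by it. The markers not called did not all lie in the same direction. Il7r differed by 3.09 ± 0.67 and Ccr7 by 1.72 ± 0.62. Cd3e differed by 0.41 ± 0.20 and Cd4 by -0.23 ± 0.20, and none of these genes passed. Cd3e, the epsilon chain of the same CD3 complex, had 0.18, 0.74, -0.19 and 0.27 in old HIIT and -0.07, -0.35, -0.09 and -0.14 in adult sedentary muscle.

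B lineage genes formed the other lymphocyte group. Jchain, the chain that joins IgA and IgM into polymers, had 0.18, 3.18, 0.27 and 0.53 in old HIIT, against -1.48, -3.52, -2.68 and -3.12 in adult sedentary muscle, 13.4-fold higher (3.74 ± 0.65, adjusted p = 0.0328). Pou2af1, a transcriptional coactivator of B cells, had -2.76, 0.55, -2.52 and -3.11 in old HIIT and -5.21, -5.47, -6.26 and -5.50 in adult sedentary muscle, at least 5.20-fold higher (adjusted p = 0.0302). Fcmr, the Fc receptor for IgM, had -2.85, 1.23, -1.78 and -1.88 in old HIIT and -5.46, -4.49, -4.23 and -5.01 in adult sedentary muscle, at least 7.82-fold higher. Jchain was the only call among 8 tested B and plasma cell markers (0.213% of all features were called higher), and in 7 of the 8 the groups did not overlap in the higher direction (3.17% of all features). Of 11 listed markers, Blk, Cd79a and Pax5 did not pass the filter. At least 2 of the 8 passed it only with old HIIT arrays, being above background on no adult array. Part of this count is therefore set by the filter. Ms4a1, the B cell surface protein CD20, had -3.98, 1.00, -2.94 and -3.18 in old HIIT and -6.12, -5.08, -5.58 and -5.45 in adult sedentary muscle, with no adult array above background; it missed the threshold (adjusted p = 0.0975).

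The lymphocyte signal was uneven among the old HIIT mice. A score for each list, the median over its members of the value minus the adult sedentary mean, was 0.88, 4.18, 0.86 and 1.04 for B and plasma cells in old HIIT mice 1 to 4, against -0.26, -0.13, 0.03 and 0.11 in adult sedentary mice. For T and NK cells it was 0.75, 3.58, 0.53 and 0.60 in old HIIT, against 0.01, 0.49, 0.03 and -0.09 in adult sedentary mice. The 3 tested markers of lymph node stroma scored 0.61, 2.41, 0.16 and 0.53 in old HIIT, against -0.04, 0.02, 0.23 and -0.14 in adult sedentary mice. Old HIIT 2 was highest in all 3 lists. The summed linear level of the B and plasma markers, in multiples of each array's 75th percentile, ranged from 2.33 to 21.6 in old HIIT and from 0.85 to 0.96 in adult sedentary muscle, and that of the T and NK markers from 8.34 to 17.3 in old HIIT and from 7.61 to 10.6 in adult sedentary muscle. Without old HIIT 2, the differences were 1.77 for Lck (adjusted p = 0.0387), 2.08 for Ccl5 (adjusted p = 0.0415) and 3.03 for Jchain (adjusted p = 0.0469). The adjusted p was then 0.0134 for Pou2af1, 0.0560 for Cd3d, 0.0966 for Fcmr and 0.137 for Cd3g, genes with 1 or no adult array above background. The part of lymph node tissue in these differences was not tested.

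Among genes of innate defence, Marco, a scavenger receptor of macrophages, had the smallest p of the 36 called genes with a symbol. Marco had -0.50, 3.90, 0.75 and 0.15 in old HIIT, against -3.30, -3.79, -3.46 and -3.77 in adult sedentary muscle, 25.2-fold higher (4.66 ± 0.65, adjusted p = 0.0156). Its SD was 1.95 in old HIIT and 0.24 in adult sedentary muscle, while the SE comes from a spread shared by the 5 groups of the fit. Without old HIIT 2 the difference was 3.71 (adjusted p = 0.000456). Marco was not called without adult sedentary 3 or 4, where limma's smallest adjusted p over all features was 0.0701 and 0.0670. General macrophage markers were not called: of 12 tested, 2 were at the adult level and 10 unresolved, with a median difference of 0.14. Slpi, a secreted inhibitor of neutrophil proteases, had -0.05, 4.52, -0.00 and 0.64 in old HIIT and -4.33, -2.27, -2.59 and -3.75 in adult sedentary muscle, 22.8-fold higher (4.51 ± 0.88, adjusted p = 0.0492). Without old HIIT 2 the difference of Slpi was 3.43 (adjusted p = 0.0661). Il22ra2, a soluble receptor that binds interleukin 22, had -3.01, 0.25, -2.13 and -1.51 in old HIIT and -4.88, -5.41, -5.98 and -5.73 in adult sedentary muscle, at least 6.67-fold higher. Without old HIIT 2 the adjusted p of Il22ra2 was 0.138.

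All 6 tested neutrophil markers were unresolved, and 4 separated the groups in the higher direction (3.17% of all features). Of 10 listed, Cxcr2, Ltf, Mmp8 and Ngp did not pass the filter. At least 1 of the 6 passed it only with old HIIT arrays, being above background on no adult array. Their score was 5.59, 3.15, 1.13 and 1.33 in old HIIT mice 1 to 4, against 0.10, 0.23, -0.08 and -0.15 in adult sedentary mice. Here old HIIT 1 was the highest. S100a8, a calcium-binding protein of neutrophils, had 3.85, 1.46, -0.82 and -0.50 in old HIIT, against -2.01, -1.12, -1.87 and -2.21 in adult sedentary muscle, a difference of 2.80 ± 0.95 (adjusted p = 0.216). Mpo, myeloperoxidase, had 0.05, -1.22, -3.88 and -3.85 in old HIIT and -5.78, -6.93, -5.98 and -4.87 in adult sedentary muscle, where no array was above background.

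The bone matrix genes Bglap2 and Bglap3 were higher as well. Bglap2, an osteocalcin gene, had -0.43, -2.48, -2.49 and -1.11 in old HIIT and -6.20, -6.95, -5.49 and -6.73 in adult sedentary muscle, at least 6.54-fold higher (adjusted p = 0.0332, and 0.0502 without old HIIT 2). Bglap3, an osteocalcin-related gene, had -0.13, -1.90, -1.51 and -0.47 in old HIIT, against -3.18, -3.88, -3.80 and -4.79 in adult sedentary muscle, 7.52-fold higher (2.91 ± 0.56, adjusted p = 0.0492). The 2 genes are nearly identical in sequence, so their probes may read the same transcripts and they count as a single uncertain observation. Of 10 listed bone and cartilage markers, Bglap, Dmp1, Ibsp and Sp7 did not pass the filter. None of the 6 tested was called, and their score was -0.20, 0.08, 0.04 and 0.97 in old HIIT, against -0.15, 0.06, -0.02 and 0.23 in adult sedentary muscle.

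Among the called features the largest fitted differences belonged to Defb6 and Gdpd2, and in both old HIIT 1 was the lowest of the old HIIT mice. Defb6, an antimicrobial beta-defensin, had -4.48, 1.54, 1.08 and 2.62 in old HIIT, against -5.90, -5.48, -6.08 and -6.73 in adult sedentary muscle, at least 23.1-fold higher (adjusted p = 0.0492). Gdpd2, a glycerophosphodiester phosphodiesterase, had -2.88, -0.14, 0.59 and 1.72 in old HIIT and -6.07, -5.52, -6.25 and -6.03 in adult sedentary muscle, at least 17.9-fold higher. Cfap57, a protein of cilia and flagella, had -4.07, -1.11, -1.30 and 0.39 in old HIIT and -6.19, -5.13, -5.88 and -6.83 in adult sedentary muscle, at least 7.06-fold higher. Keratinocyte markers were also lowest in old HIIT 1 and highest in old HIIT 4: their score was 0.71, 5.23, 6.51 and 7.65 in old HIIT mice 1 to 4, against -0.21, 0.20, 0.13 and -0.13 in adult sedentary mice.

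None of the 9 keratinocyte markers passed the test, and 4 separated the groups in the higher direction (3.17% of all features). Of the 9, 2 were above background on no adult sedentary array. These, and Lor with 1 adult array above background, passed the filter only with old HIIT arrays. Lor, Krt14, the neutrophil genes and the T cell genes below the threshold are given as examples chosen after their values were seen. Lor, the cornified envelope protein loricrin, had 0.82, 5.67, 5.90 and 7.83 in old HIIT, against -4.36, -4.40, -3.87 and -4.60 in adult sedentary muscle, a fitted difference of 9.36 ± 2.12 with 1 adult array above background (adjusted p = 0.0742). Krt14, a keratin of the basal layer of skin, had -2.20, 1.08, 2.53 and 3.67 in old HIIT and -3.60, -2.11, -2.93 and -3.00 in adult sedentary muscle. The summed level of the 9 markers ranged from 6.58 to 536 in old HIIT and from 3.77 to 5.66 in adult sedentary muscle. The part of skin in the calls for Defb6, Gdpd2 and Cfap57 was not tested. Old HIIT and old MICT arrays share slide 3, and in old MICT muscle Defb6 averaged -5.53, Gdpd2 -5.31 and Cfap57 -5.35, against adult sedentary means of -6.05, -5.97 and -6.01. In adult HIIT muscle the means were -5.14 for Defb6, -3.64 for Gdpd2 and -2.86 for Cfap57, with SDs of 2.20, 3.28 and 1.42. Single mice stood high there: adult HIIT 4 at -1.97 in Defb6, and adult HIIT 3 at 0.84 in Gdpd2 and -0.78 in Cfap57. Without old HIIT 2 the adjusted p of Gdpd2 was 0.116, and Defb6 and Cfap57 did not pass the filter.

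Hormone receptors and a protease inhibitor were higher as well. Paqr5, a membrane progestin receptor, had -2.51, -2.79, -2.29 and -1.03 in old HIIT, against -6.08, -6.54, -6.23 and -5.84 in adult sedentary muscle, at least 4.54-fold higher (adjusted p = 0.0332, and 0.0510 without old HIIT 2). Prlr, the prolactin receptor, had -2.14, -1.70, -1.51 and -1.13 in old HIIT, against -3.94, -3.39, -6.18 and -4.66 in adult sedentary muscle, a fitted difference of 2.92 ± 0.59 with 1 adult array above background (adjusted p = 0.112 without old HIIT 2). Timp4, an inhibitor of matrix metalloproteinases and the brightest of the 29, had 2.86, 2.73, 2.53 and 2.45 in old HIIT, against 1.499, 1.20, 1.79 and 1.99 in adult sedentary muscle, 2.04-fold higher (1.03 ± 0.18, adjusted p = 0.0332).

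The smaller differences among the calls include 2 channels and 2 enzymes. Best2, Timp4, Lck and the 10 other called genes outside the rule for named genes were named after their values were seen. Best2, the chloride channel bestrophin 2, averaged -3.26 ± 0.21 in old HIIT and -4.87 ± 0.44 in adult sedentary muscle (SD, n = 4 each), where no array was above background. Kcnd3, a voltage-gated potassium channel, averaged -1.94 ± 0.24 in old HIIT and -3.40 ± 0.32 in adult sedentary muscle. Ptgds, prostaglandin D synthase, averaged -0.95 ± 0.52 in old HIIT and -2.44 ± 0.10 in adult sedentary muscle, and Cds1, which makes CDP-diacylglycerol, -1.96 ± 0.38 in old HIIT and -3.74 ± 0.38 in adult sedentary muscle. Of the remaining 7 calls with a symbol, Cck, Spock2, Rhpn2, Fcho1, Csprs and Cyp2c67 were higher by 1.45 to 2.35, with 2 adult arrays above background for Cck and Cyp2c67. Dbndd1, above background on no adult array, was at least 2.23-fold higher. Without old HIIT 2, another probe stood for Csprs and its difference was 0.49 (adjusted p = 0.441).

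A further 25 features called higher had no symbol. An Ensembl transcript accession was all that named 19 of them, from 18 accessions, and 18 of these 19 had their highest value on old HIIT 2. Another 4 had other accessions, all highest on old HIIT 2. The remaining 2 were transcribed intervals on chromosome 1 of the array's mm9 build. The interval at chr1:85117750-85129200 on the plus strand averaged -2.93 ± 0.79 in old HIIT and -5.88 ± 0.74 in adult sedentary muscle (SD, n = 4 each), where no adult array was above background, and was at least 2.65-fold higher (adjusted p = 0.0328). The interval at chr1:85304494-85305390 on the minus strand averaged -2.44 ± 0.49 in old HIIT and -5.02 ± 0.95 in adult sedentary muscle (fitted difference 2.58 ± 0.50, with 1 adult array above background). Neither interval could be given a gene here.

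**Figure D2:**
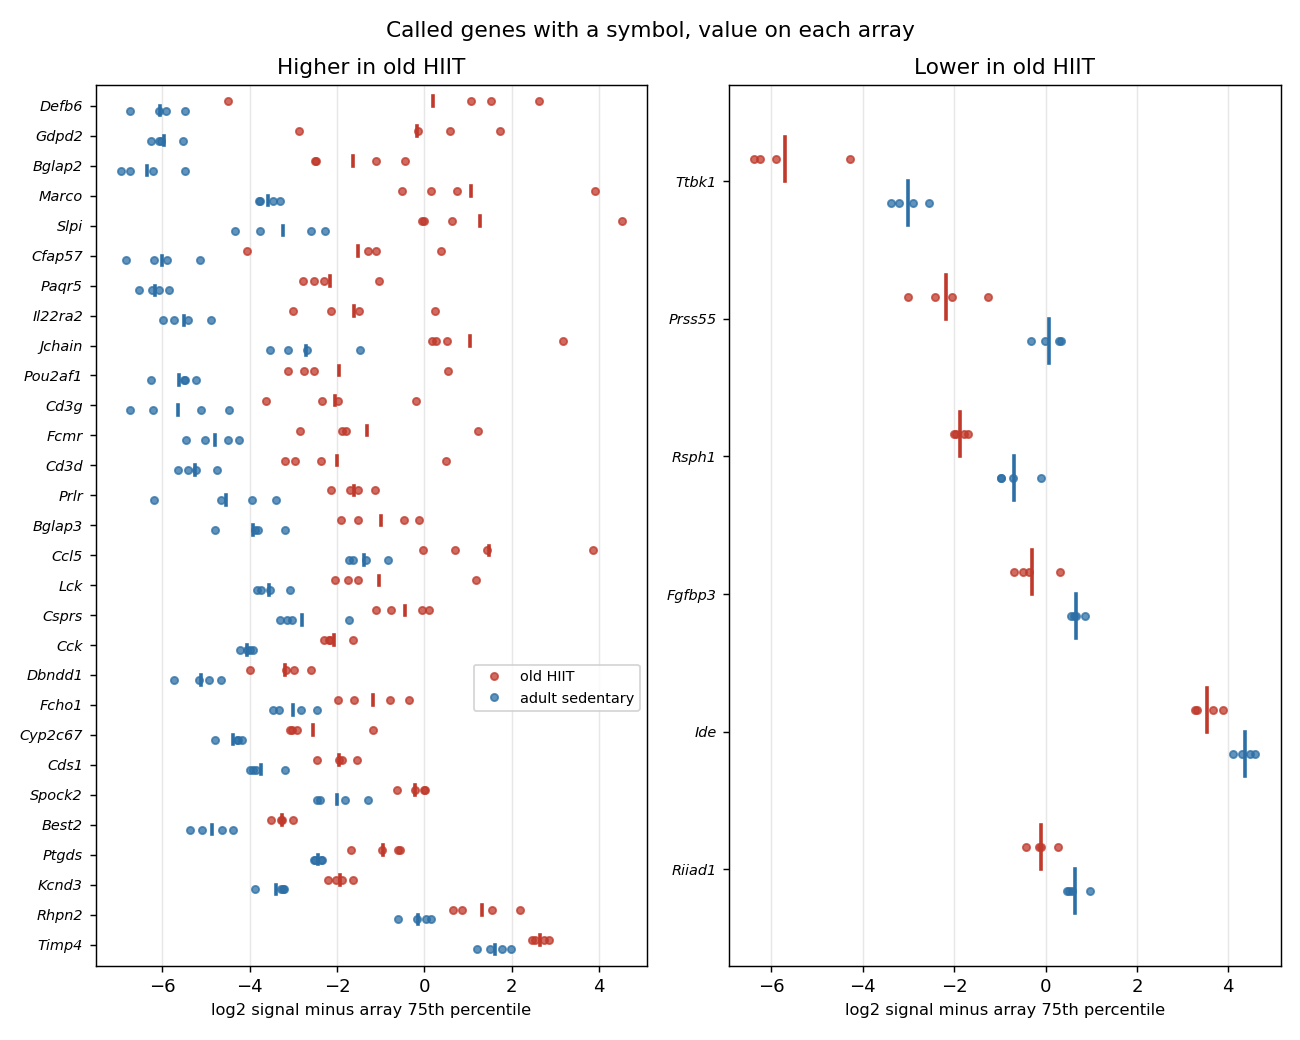
Values of the 29 genes called higher (left) and 6 of the 7 called lower (right) on each array; the x axis is the log2 signal minus the array's 75th percentile, dots are single mice, vertical bars are group means, red is old HIIT and blue is adult sedentary. The groups do not overlap in any of the genes shown, and single old HIIT mice sit apart in several of them, such as old HIIT 2 at 4.52 in Slpi and old HIIT 1 at -4.48 in Defb6.

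Fewer features were lower in old HIIT muscle: 9 in all, 7 with a symbol, and the 6 genes described here were lower by 0.74 to 2.69 log2 units. All 9 had every old HIIT array below every adult sedentary array, which 5.18% of all features showed. Prss55, a serine protease known from testis, had -2.41, -1.26, -2.06 and -3.02 in old HIIT, against 0.29, -0.31, -0.01 and 0.35 in adult sedentary muscle, a difference of -2.26 ± 0.35, or 4.81-fold lower (adjusted p = 0.0193). Ttbk1, a kinase of tau and tubulin known from brain, had -6.38, -4.29, -5.91 and -6.24 in old HIIT, against -3.21, -3.38, -2.89 and -2.55 in adult sedentary muscle (-2.69 ± 0.44, adjusted p = 0.0235). It was above background on all 4 adult sedentary arrays and on 1 old HIIT array, old HIIT 2.

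Ide encodes the insulin-degrading enzyme, a zinc protease that clears insulin and amyloid peptides. Ide had 3.66, 3.88, 3.28 and 3.32 in old HIIT, against 4.49, 4.10, 4.30 and 4.59 in adult sedentary muscle, 1.78-fold lower (-0.84 ± 0.15, adjusted p = 0.0332). Fgfbp3, which binds fibroblast growth factors, had -0.37, 0.33, -0.49 and -0.69 in old HIIT and 0.61, 0.55, 0.66 and 0.86 in adult sedentary muscle, 1.97-fold lower. In Ide and Fgfbp3 old HIIT 2 came closest to the adult mice.

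Rsph1, a radial spoke protein of cilia, was 2.25-fold lower, with -1.79, -2.01, -1.96 and -1.71 in old HIIT, against -0.72, -0.97, -0.11 and -0.98 in adult sedentary muscle. Riiad1, which carries a docking domain of protein kinase A, was 1.67-fold lower, with -0.10, 0.27, -0.42 and -0.15 in old HIIT, against 0.98, 0.52, 0.46 and 0.59 in adult sedentary muscle. The 2 lower features without a symbol overlap each other on the plus strand of chromosome 4 in mm9. The interval chr4:119963954-119976499 averaged -2.39 ± 0.29 in old HIIT and -0.88 ± 0.08 in adult sedentary muscle (SD, n = 4 each; difference -1.51 ± 0.24, SE, adjusted p = 0.0193), and chr4:119967625-119978325 averaged -2.23 ± 0.51 in old HIIT and -0.44 ± 0.12 in adult sedentary muscle (-1.79 ± 0.32). Since the intervals overlap, they are not independent observations.

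The levels in the other groups place these genes. Ide averaged 3.53 in old HIIT and 3.56 in old MICT, against 4.29 in adult HIIT, 4.49 in adult MICT and 4.37 in adult sedentary muscle. The difference between old HIIT and adult HIIT passed the test too (-0.75, adjusted p = 0.0435). Prss55 averaged -2.19 in old HIIT and -2.11 in old MICT, against -1.35 in adult HIIT, -0.87 in adult MICT and 0.08 in adult sedentary muscle. Ttbk1 averaged -5.70 in old HIIT and -5.89 in old MICT, against -4.79 in adult HIIT, -4.51 in adult MICT and -3.01 in adult sedentary muscle. These comparisons share arrays and slides, so their values are side by side only.

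Timp4 had another pattern: it averaged 2.64 in old HIIT, 2.48 in old MICT, 2.52 in adult HIIT and 2.56 in adult MICT, against 1.62 in adult sedentary muscle. The adult sedentary group was the one apart. Marco averaged 1.08 in old HIIT, against -2.74 in old MICT, -3.16 in adult HIIT, -3.51 in adult MICT and -3.58 in adult sedentary muscle. Old HIIT against adult HIIT gave 4.23 for Marco (adjusted p = 0.0134), and old HIIT against old MICT, on the same slide, gave 3.81 (adjusted p = 0.0865), which missed the threshold. Jchain averaged 1.04 in old HIIT and -0.60 in old MICT, against -3.72 in adult HIIT, -2.06 in adult MICT and -2.70 in adult sedentary muscle.

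**Figure D3:**
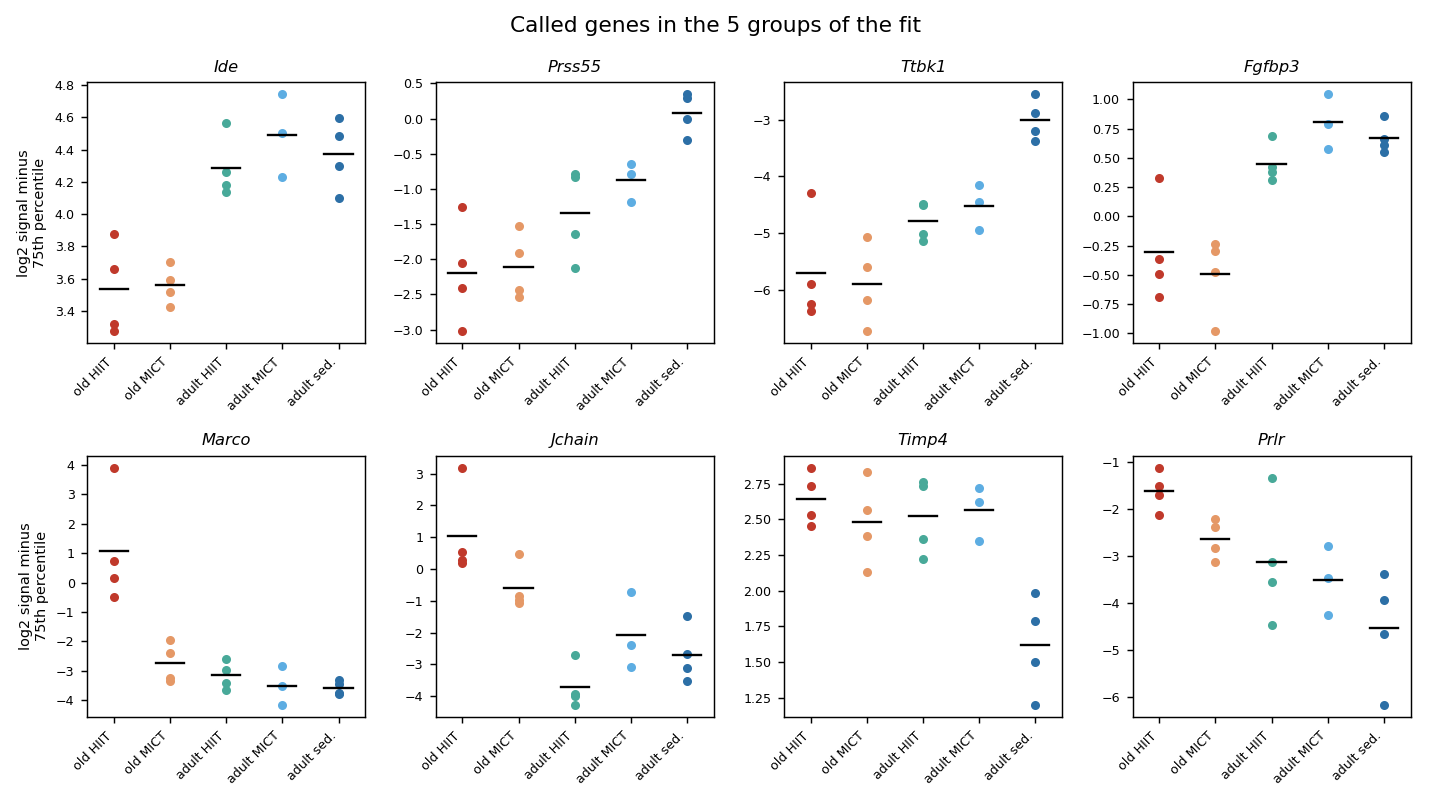
Levels of 8 called genes on the arrays of the 5 groups in the fit, in the order old HIIT, old MICT, adult HIIT, adult MICT and adult sedentary; the y axis is the log2 signal minus the array's 75th percentile, dots are single mice and black bars are group means. Ide has lower means in both old groups (3.53 and 3.56) than in the 3 adult groups, and in Timp4 the adult sedentary mean of 1.62 stands below the other 4 means.

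As a whole, old HIIT against old MICT gave 0 called features by limma (4319 with an unadjusted p under 0.05, smallest adjusted p 0.0865), and old HIIT against adult HIIT gave 81 of 25326 (0.32%), 59 higher and 22 lower. Without old HIIT 1 the count against old MICT was 699, and without old HIIT 1 and 2 it was 388.

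Several familiar muscle genes were unresolved, and in them the 4 old HIIT mice differed among themselves. Pdk4, the kinase that switches off pyruvate dehydrogenase when fat is burned, had 8.89, 7.63, 5.16 and 5.19 in old HIIT mice 1 to 4, against 6.74, 6.23, 5.33 and 5.61 in adult sedentary mice. The muscle ubiquitin ligase Trim63 had 8.69, 7.57, 5.86 and 5.35 in old HIIT, against 6.28, 5.82, 5.76 and 5.89 in adult sedentary muscle. Its partner in atrophy, Fbxo32, had 6.82, 5.91, 3.56 and 3.31 in old HIIT, against 4.71, 3.87, 3.99 and 4.14 in adult sedentary muscle. In each of the 3 genes, old HIIT 1 and 2 lay above every adult mouse while old HIIT 4 lay below every adult mouse. The fitted differences were 0.74 ± 0.79 for Pdk4, 0.93 ± 0.68 for Trim63 and 0.72 ± 0.67 for Fbxo32, and none passed the test. In old MICT mice 1 to 4, also on slide 3, Pdk4 had 9.33, 9.04, 6.62 and 6.11. Trim63 had 9.60, 9.31, 6.40 and 6.86 there, and Fbxo32 had 7.51, 6.96, 5.06 and 4.66. Mice 1 and 2 were thus the highest in both old groups, and what they share was not tested.

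The same order of old HIIT mice ran through glucocorticoid-induced genes, which corticosterone switches on in muscle during stress and fasting. Their score was 1.51, 0.92, 0.24 and 0.10 in old HIIT mice 1 to 4, against -0.05, 0.03, 0.12 and -0.10 in adult sedentary mice. None of the 18 was called or at the adult level, 16 differences were positive, the median was 0.74, and 6 separated the groups in the higher direction, against 3.17% of all features. Per1, a clock gene that glucocorticoids induce, had 4.93, 4.07, 3.55 and 3.53 in old HIIT and 2.19, 3.01, 3.33 and 3.101 in adult sedentary muscle (1.11 ± 0.39, adjusted p = 0.235). In old MICT mice 1 to 4 Per1 had 6.00, 6.01, 4.17 and 4.37. Sult1a1, a sulfotransferase, was the exception in being even: 3.86, 3.90, 3.66 and 3.57 in old HIIT, against 3.15, 2.83, 2.82 and 3.21 in adult sedentary muscle (0.74 ± 0.18, adjusted p = 0.0945).

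Fkbp5 and Ddit4 were chosen after their values were seen. Fkbp5, a chaperone partner of the glucocorticoid receptor, had 5.88, 4.98, 3.50 and 3.16 in old HIIT and 3.44, 2.79, 3.12 and 2.34 in adult sedentary muscle. Ddit4, an inhibitor of the growth kinase mTORC1, had 6.07, 5.31, 3.58 and 3.54 in old HIIT and 2.996, 2.998, 3.40 and 3.07 in adult sedentary muscle. The cell cycle inhibitor Cdkn1a (p21) had 3.94, 2.88, 1.65 and 1.79 in old HIIT, against 0.38, 1.21, 0.27 and 1.20 in adult sedentary muscle (1.80 ± 0.67, adjusted p = 0.267). In all 3 genes old HIIT 1 was highest and old HIIT 2 next. In old MICT mice 1 to 4 Cdkn1a had 5.25, 5.16, 1.94 and 2.04. Acot1, a fatty acyl-CoA thioesterase, had 4.40, 2.996, 1.302 and 2.05 in old HIIT and 0.03, -0.02, -0.23 and 0.48 in adult sedentary muscle (2.62 ± 0.71, adjusted p = 0.130). Of the 35 fatty acid genes it belongs to, 13 were at the adult level and none passed. Old HIIT 1 and 2 were also the mice with the highest neutrophil scores, 5.59 and 3.15.

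**Figure D4:**
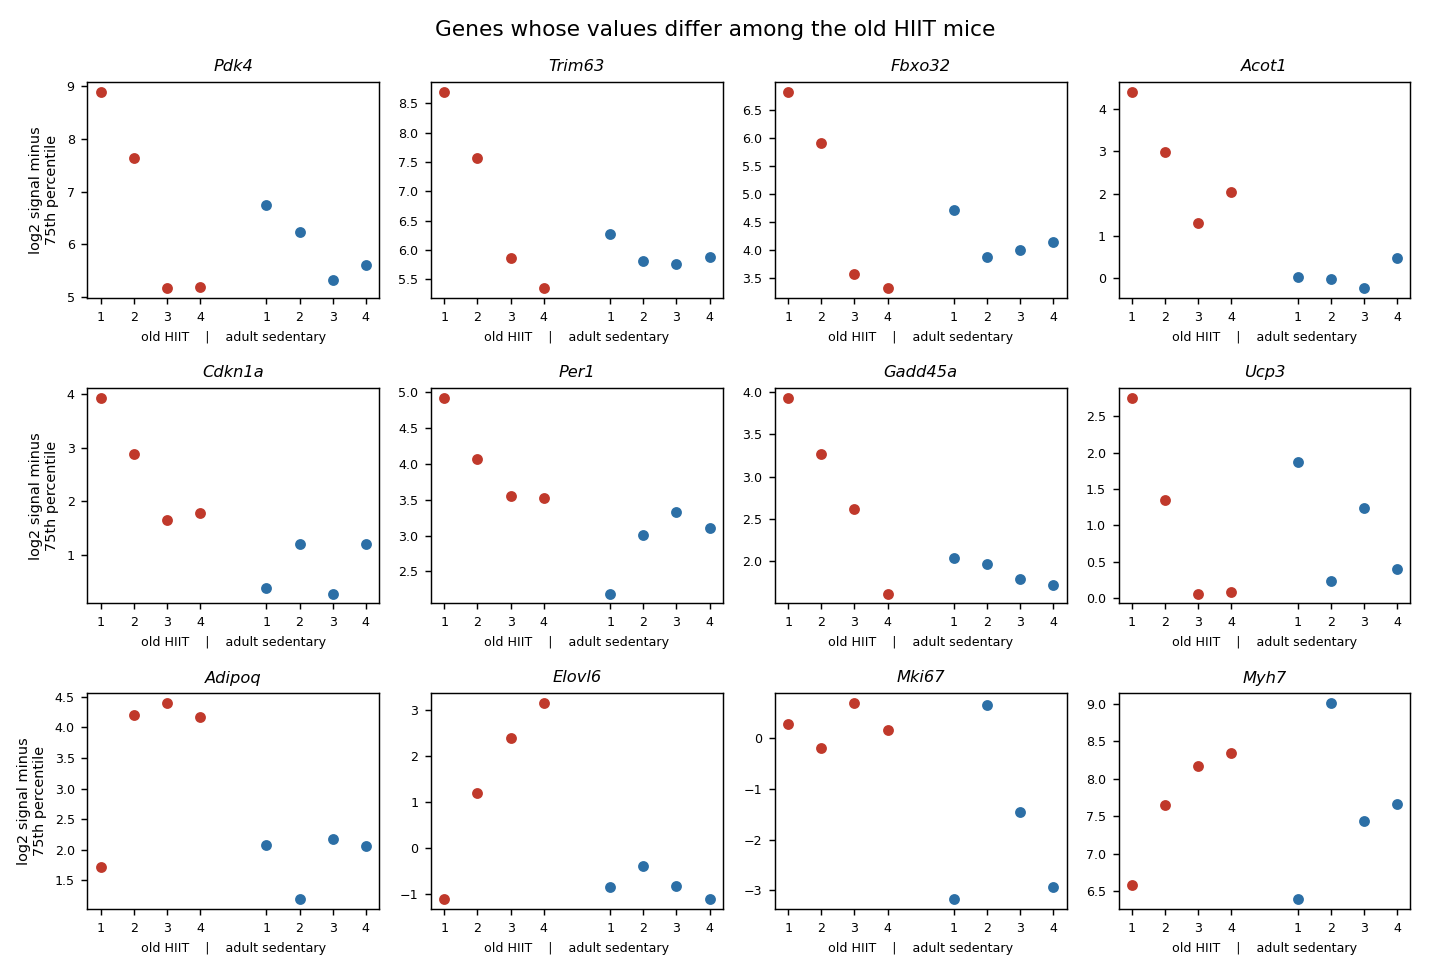
Levels of 12 genes in old HIIT mice 1 to 4 (red, left of each panel) and adult sedentary mice 1 to 4 (blue, right); the y axis is the log2 signal minus the array's 75th percentile and each dot is 1 mouse. Pdk4, Trim63 and Fbxo32 are high in old HIIT 1 and 2 (Pdk4 8.89 and 7.63) and low in old HIIT 3 and 4, while Adipoq and Elovl6 are lowest in old HIIT 1; in Myh7 and Mki67 adult sedentary 2 is the highest adult mouse.

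Fat cell genes had the opposite low mouse. The adipocyte score was -0.04, 2.13, 2.40 and 1.90 in old HIIT, against 0.15, -0.31, -0.02 and 0.11 in adult sedentary mice, so old HIIT 1 lay within the adult range and the other 3 above it. All 10 tested markers were positive with a median difference of 1.63, against -0.05 for all features. None passed, and 3 separated the groups in the higher direction (3.17% of all features). Adipoq, the fat hormone adiponectin, had 1.72, 4.20, 4.40 and 4.17 in old HIIT, against 2.08, 1.19, 2.17 and 2.07 in adult sedentary muscle (1.74 ± 0.70, adjusted p = 0.306). Elovl6, a fatty acid elongase, had -1.11, 1.20, 2.39 and 3.15 in old HIIT, against -0.84, -0.38, -0.82 and -1.11 in adult sedentary muscle (2.20 ± 0.83). The summed level of the adipocyte markers ranged from 135 to 515 in old HIIT and from 152 to 189 in adult sedentary muscle. Adipoq averaged 3.62 in old HIIT and 2.96 in old MICT, against 3.12 in adult HIIT, 3.46 in adult MICT and 1.88 in adult sedentary muscle.

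Slow-twitch genes were unresolved in all 17 that were tested, and here the adult group carried the wide spread. Their score was -0.76, -0.14, 0.24 and 0.40 in old HIIT, against -0.74, 1.46, -0.45 and -0.09 in adult sedentary mice. Myh7, the slow myosin heavy chain, had 6.59, 7.65, 8.17 and 8.34 in old HIIT, against 6.40, 9.01, 7.44 and 7.67 in adult sedentary muscle (0.06 ± 0.87). Tnnt1, slow troponin T, chosen after its values were seen, had 6.99, 7.67, 8.02 and 8.21 in old HIIT and 6.70, 9.04, 7.35 and 7.70 in adult sedentary muscle. The 95% interval of the Myh7 difference ran from -1.78 to 1.89.

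Cell division genes leaned higher without a call. The median difference of 30 genes was 0.85, 23 were positive, 16 had an unadjusted p under 0.05 (3201 of 25326 over all features) and 4 were at the adult level. None separated the groups in the higher direction (3.17% of all features) and 2 did in the lower (5.18%). Mki67, the proliferation antigen, had 0.29, -0.19, 0.70 and 0.17 in old HIIT, against -3.17, 0.65, -1.46 and -2.94 in adult sedentary muscle (1.97 ± 0.71, adjusted p = 0.249). Prc1, a regulator of cytokinesis, had -0.76, -1.83, -0.51 and -0.93 in old HIIT and -4.33, -0.74, -3.03 and -4.05 in adult sedentary muscle. Adult sedentary 2 was the highest adult mouse in both genes, and its list score was 1.20. The old HIIT mice scored 0.95, 0.37, 1.21 and 0.63, and the other adult sedentary mice scored -0.56, -0.06 and -0.40. The same adult mouse had the highest score for slow-twitch genes, 1.46, and for matrix genes, 0.56.

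Matrix genes leaned lower. Of 39 collagens, laminins, crosslinking enzymes and matrix proteases, 5 had a positive difference, the median was -0.39, 7 separated the groups in the lower direction (5.18% of all features did), 6 were at the adult level and none passed. P4ha1, a prolyl hydroxylase that stabilises the collagen helix, had -0.03, 0.54, 0.30 and -0.18 in old HIIT, against 0.95, 0.59, 1.40 and 0.81 in adult sedentary muscle (-0.78 ± 0.19, adjusted p = 0.101). Lamc1, a laminin chain of the basement membrane, also chosen after its values were seen, had 4.02, 4.19, 4.26 and 4.28 in old HIIT, against 4.53, 4.71, 4.55 and 4.60 in adult sedentary muscle. Col1a1, the main fibrillar collagen chain, had 3.75, 3.96, 4.89 and 4.24 in old HIIT and 3.79, 5.84, 4.91 and 4.15 in adult sedentary muscle, where adult sedentary 2 is the highest (-0.47 ± 0.51).

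Of 19 tested regulators of mitochondrial biogenesis, 9 were at the adult level, and of 22 genes of blood vessel growth, 4; none of either list passed the test. Ppargc1a, the coactivator PGC-1alpha that drives mitochondrial biogenesis, had 2.88, 3.03, 3.06 and 2.88 in old HIIT, against 3.30, 3.07, 3.76 and 3.14 in adult sedentary muscle (-0.36 ± 0.20, adjusted p = 0.480). Every old HIIT value lay below every adult value. Vegfa, the vascular growth factor, had 3.84, 4.11, 4.35 and 4.19 in old HIIT and 4.58, 4.47, 4.71 and 4.84 in adult sedentary muscle (-0.53 ± 0.29, adjusted p = 0.478), again without overlap. Phgdh, the first enzyme of serine synthesis, had 0.04, 0.73, 1.07 and 1.14 in old HIIT, against -0.55, -0.48, -0.64 and -0.43 in adult sedentary muscle (1.27 ± 0.37, adjusted p = 0.151). Gdap1, a mitochondrial protein of nerve and muscle, had -0.13, 1.41, 1.18 and 0.80 in old HIIT and 2.63, 1.85, 2.91 and 2.22 in adult sedentary muscle (-1.59 ± 0.40, adjusted p = 0.110).

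Of the clock genes, Arntl, Nr1d1 and Dbp differed by -0.20 ± 0.43, -0.22 ± 0.26 and -0.47 ± 0.55, with overlapping groups. Cdkn2a, a locus that encodes the cell cycle inhibitors p16 and p19ARF, differed by -0.51 ± 0.55, with -2.02, -2.47, -0.73 and -2.51 in old HIIT and -1.15, -0.60, -1.41 and -2.55 in adult sedentary muscle. Mstn, myostatin, the negative regulator of muscle mass, had 2.98, 3.48, 3.55 and 2.66 in old HIIT, against 3.52, 2.57, 3.83 and 3.26 in adult sedentary muscle (-0.13 ± 0.47). All 5 are unresolved, so these data fix neither a difference nor likeness for them. Schwann cell markers had a median difference of 0.64, with 9 of 10 positive and 1 at the adult level. Over the alternative settings, the additive fit included, that median ran from -0.77 to 0.94. Since the additive fit cannot show the old HIIT difference, this range does not settle the sign. Endothelial markers had a median of -0.08 (-0.25 to 0.046 over the same alternatives), with 6 of 11 at the adult level.

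**Figure D5:**
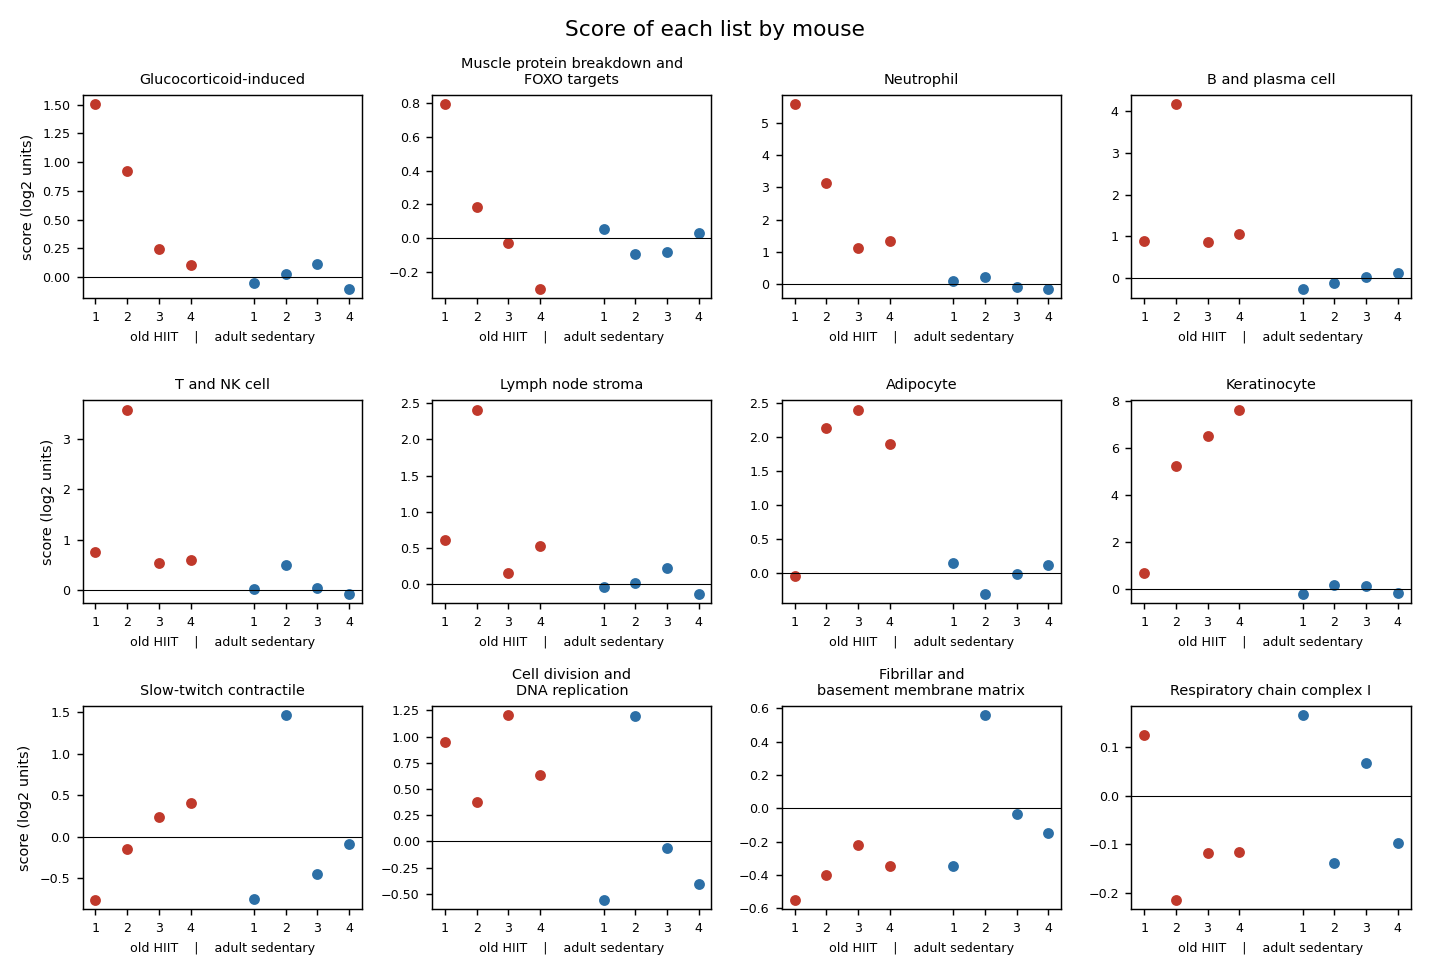
Score of 12 gene lists in old HIIT mice 1 to 4 (red, left) and adult sedentary mice 1 to 4 (blue, right); the y axis is the median over the list's members of the value minus the adult sedentary mean, in log2 units. Old HIIT 2 stands apart in the B and plasma cell (4.18), T and NK cell (3.58) and lymph node stroma (2.41) panels, old HIIT 1 in the neutrophil panel (5.59), and adult sedentary 2 in the slow-twitch (1.46) and cell division (1.20) panels.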

How the data were processed

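RNA of whole gastrocnemius was labelled with Cy3 from 200 ng and hybridised to 1-colour Agilent arrays, per the labels' protocols. Feature Extraction 12.0.3.1 made the deposited intensity of each spot (the processed signal), per the file headers; the background and outlier flags came with it. The authors' deposited value table holds scores whose scale and centring are unstated; it was used only as an alternative. The probes' build is mm9, and RefSeq (GRCm38.p6) names were found for 28331 of 29786 RefSeq probes.

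Control spots and outlier spots were left out, and log2 intensity was taken minus each array's 75th percentile. Features had to be well above background on at least 3 of the 8 compared arrays, with 1 probe per symbol (the brightest). limma 3.58.1 (R 4.3.3) fitted 19 arrays of 5 groups with an intensity trend, 2-sided, with Benjamini-Hochberg adjustment. The fit was tested on simulated data. Named genes were the 15 largest called changes each way, up to 4 called members of each list or its member with the smallest p, the 10 brightest at the adult level and a set list; others are marked where named. Members and lists were chosen with earlier results of these data known. Whether mice shared litters is not given, and each sample was taken as separate. The p-values test a difference of means against the spread within the 5 groups of the fit. The number of arrays limits the precision. Alternatives covered scaling, background, filter, probes, variance model, slide, replicate block, margin and arrays left out. Some results are not reported here.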

Additional observations from a re-analysis of the deposited data

Results flagged for a closer look

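Of 330 groups of 4 values examined, 22 had 1 mouse far from the other 3 of its group, and chance alone gives about 1 in 20. In old HIIT 2, immune genes stood high: Slpi at 4.52 (the others -0.05 to 0.64), Jchain at 3.18 (0.18 to 0.53), Pou2af1 at 0.55 (-3.11 to -2.52), Lck at 1.18 (-2.05 to -1.52) and Ccr7 at 0.94 (-2.79 to -2.42). The B and plasma cell score was 4.18 there (0.86 to 1.04) and the T and NK cell score 3.58 (0.53 to 0.75).

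Bright muscle genes stood low in the same mouse: Pvalb at 9.59, Myh8 at 9.42, Tpm1 at 9.35, Slc25a4 at 9.37, Gm5523 at 9.27 and Myh4 at 8.99, with the other old HIIT mice between 10.002 and 10.63 over these 6 genes. Its clock score was -0.17 (0.04 to 0.06). Old HIIT 1 stood apart in Esm1 at 0.69 (-0.26 to -0.17) and Adipoq at 1.72 (4.17 to 4.40). Old HIIT 4 did so in Cyp2c67 at -1.17 (-3.08 to -2.90) and in the blood vessel growth score at 0.094 (-0.20 to -0.16).

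Among adult sedentary mice, number 2 stood apart in Runx1 at -0.17 (-2.05 to -1.97), Adipoq at 1.19 (2.07 to 2.17) and the satellite cell score at 0.058 (-0.08 in the others), and number 1 in Kcnd3 at -3.87 (-3.27 to -3.20).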

How the results depend on the processing

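Against adult sedentary muscle, 63 features were called. With only the 8 compared arrays in the fit 76 were called, and 24 of them were among the 63. The count was 16 with quantile scaling, 846 with median scaling, 4 with normexp background, 34 without a filter, 4 when 6 compared arrays had to be above background, 4 with all 23 arrays, 28 without the trend, 32 with robust variance, 1309 with array weights, 33 with every probe a feature, 14 with the deposited value table, 3 for a fold of at least 1.5, and 0 in the additive fit of age, training and slide (1891 at an unadjusted p under 0.05). Features at the adult level, 10830, became 6819 with median scaling, 17049 with normexp, 387 in the additive fit, 6763 without old HIIT 1 and 2, 19380 at a 2-fold margin and 1575 at the narrower one. Against adult HIIT, 81 calls became 38 with quantile scaling, 582 with median scaling, 196 with normexp, 23 without a filter, 7 with the stricter filter, 7 with all 23 arrays, 2696 with array weights, 0 in the additive fit (2310 unadjusted), 43 with the deposited table, 3 at a 1.5-fold threshold, 11 without old HIIT 1 and 2, and 22 without adult sedentary 2 and old HIIT 2. Against old MICT, 0 became 388 and 12 under those last 2 settings. Leaving out 1 array at a time gave 0 to 442 calls against adult sedentary, 8672 to 11075 features at the adult level, 0 to 699 calls against old MICT and 0 to 233 against adult HIIT. The lowest count against adult HIIT came without adult HIIT 4 (2929 unadjusted), and without adult HIIT 3 the adult sedentary comparison gave 355. Only the additive fit gave called genes another sign: Best2 -0.18, Cyp2c67 -1.06 and Dbndd1 -0.037. Old HIIT enters that estimate with a minus sign, so these values are not reversals of the old HIIT difference. Deviations of old HIIT and adult sedentary samples with the same replicate number correlated weakly and positively (r = 0.140, 0.132, 0.118 and 0.062). Samples with different numbers gave r from -0.179 to 0.102. The main fit used no pairing by number, and with the replicate block 37 features were called. Median differences of gene lists stayed within the spread between replicates in 1522 of 1584 cases. Of the 62 that moved, 19 came in the additive fit and 13 with median scaling. Dim features limit the precision: 7.53% of the dimmest of 4 equal bins could be placed at the adult level.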
